A study of Mus musculus with 62 samples.

Results

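White adipose tissue (WAT) of melanoma-bearing and mock-injected mice was divided by how much RNA of the bladder lining it held. Among the 40 libraries from mice that had received melanoma cells of a non-cachectic line (NCAC) or a mock injection (mock), 7 held more than 100 TPM (length-corrected transcript shares, scaled to the same total in each library) in the sum of Upk1a, Upk2, Upk3a, Krt5, Krt20, Psca and Sprr1a. They were selected on these measured levels, are called the libraries with urothelial transcripts, and were set against the other 33. The series has 62 libraries in all. The remaining 22, from mice injected with cachectic melanoma cells (CAC), took no part in choosing the 7 and served as a second set. They were divided by the same sum and threshold. WAT was collected 2, 4, 6 and 8 weeks after injection, with 5 NCAC and 5 mock libraries at each week, and 5, 5, 5 and 7 CAC libraries. The mice were females of 2 months. The design text calls them athymic nude mice, whereas the sample labels give the strain C57BL6/J, and this was not resolved. The treatment field of every sample names the cachectic cells, so arm and week were taken from the sample descriptions. The labels name neither the fat depot nor the dissection, and they speak of biological replicates without naming animals.

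The urothelium lines the bladder, ureters and renal pelvis and keeps urine from the tissue beneath. Its superficial umbrella cells are covered by plaques of uroplakins, in which the tetraspanins Upk1a and Upk1b pair with Upk2 and Upk3a. Basal cells carry the keratin Krt5 and the transcription factor Trp63, and umbrella cells carry Krt20. Upk3b and Upk1b are also made by mesothelium, the flat cell layer that covers abdominal fat and organs, so they do not mark urothelium alone in such tissue.

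The promoters of Upk3a, which helped choose the libraries, and of its relative Upk3b, which did not pass the test between them, are shown as a pair because these related genes gave unlike values below. Each is the 250 bases before the gene's start in RefSeq (GRCm38.p6), 5′ to 3′ on the plus strand, at chr15:85016891-85017140 for Upk3a and chr5:136038246-136038495 for Upk3b. Capitals mark a match to the GATA motif AGATAA on either strand.
Upk3a: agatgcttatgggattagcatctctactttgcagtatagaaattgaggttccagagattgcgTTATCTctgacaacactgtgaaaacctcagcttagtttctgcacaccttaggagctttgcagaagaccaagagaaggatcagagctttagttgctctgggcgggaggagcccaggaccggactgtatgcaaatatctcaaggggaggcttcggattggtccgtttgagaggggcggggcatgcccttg
Upk3b: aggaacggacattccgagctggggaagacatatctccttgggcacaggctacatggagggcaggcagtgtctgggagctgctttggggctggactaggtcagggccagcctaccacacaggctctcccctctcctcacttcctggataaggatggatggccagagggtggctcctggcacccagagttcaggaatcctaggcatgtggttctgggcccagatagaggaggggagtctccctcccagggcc
The Upk3a window held 1 match, on the reverse strand, and the Upk3b window held none. Among other genes of the sum, Krt20 also held 1 match, whereas Upk1a, Krt5 and Sprr1a held 0. A link between motif and level was not tested. Of 27025 promoters of this length, 10.3% held AGATAA. The grainyhead-like motif AACCNGTT was in neither window and in 1.71% of all promoters, and TATAAA was in neither window and in 13.0%. RefSeq promoters were found for 6 of the 9 genes looked up, and Upk2, Psca and Upk1b were not among them.

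The 7-gene sum was 107, 179, 192, 277, 318, 342 and 635 TPM in the libraries with urothelial transcripts, against 0.273 to 99.8 TPM, with a median of 0.942 TPM, in the 33 without. In order, the 7 were mock 8-week replicates 2 and 3, mock 6-week replicate 3, NCAC 4-week replicate 3, NCAC 2-week replicate 2, and mock 4-week replicates 2 and 4. The threshold fell in a narrow gap. Just inside was mock 8-week replicate 2 at 107 TPM, and just outside mock 2-week replicate 5 at 99.8 TPM. The next libraries below were NCAC 4-week replicate 1 at 14.1 TPM and mock 2-week replicate 1 at 11.5 TPM. The sum made up 0.0107% to 0.0635% of all transcripts in the libraries with urothelial transcripts, and at most 0.00998% in those without.

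**Figure D1:**
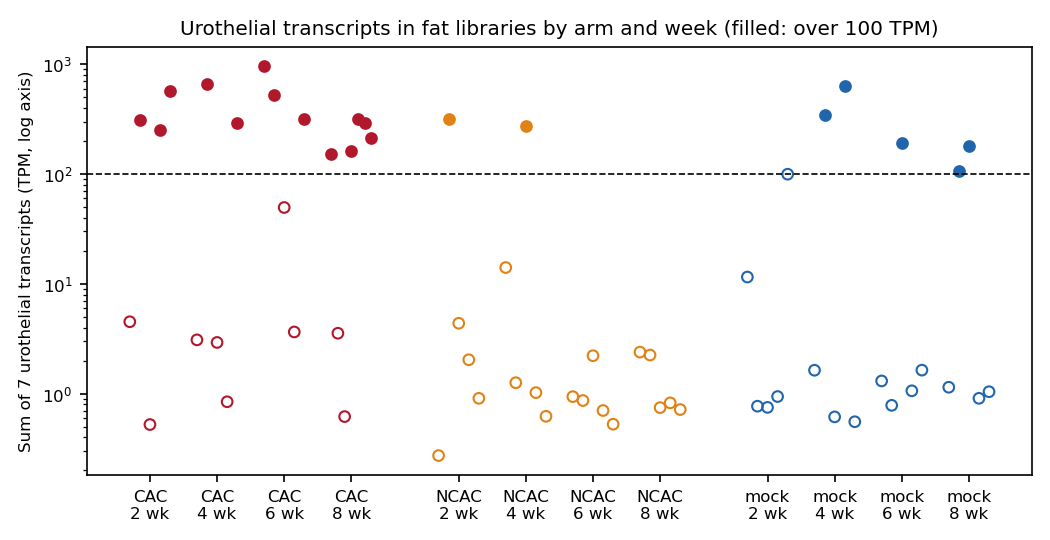
Sum of the 7 urothelial transcripts in each of 62 libraries (TPM, log axis) by arm and week; each point is 1 library, filled points are over the dashed line at 100 TPM. 13 of 22 CAC, 2 of 20 NCAC and 5 of 20 mock libraries are filled, and mock 2-week replicate 5 lies at the line with 99.8 TPM.

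All 5 defining markers bore out the label, as the choice of libraries required. Upk1a (chr7:30603092-30612847), a uroplakin tetraspanin, had 16.6, 26.4, 19.98, 42.2, 48.1, 54.0 and 97.8 TPM in the libraries with urothelial transcripts in the same order, against a median of 0.512 TPM in those without. Upk3a (chr15:85017141-85022547) had 15.02, 33.6, 29.6, 44.2, 60.6, 48.8 and 106 TPM in libraries with urothelial transcripts, and was listed at 0 in 25 of the 33 without. Both uroplakins were highest in mock 4-week replicate 4 and, but for mock 2-week replicate 5, at most a few TPM elsewhere. Upk2 (chr9:44452715-44454976) ranged between 5.69 and 52.4 TPM and was listed at 0 in 27 of the 33 libraries without. Psca, a small surface protein of urothelium and prostate, ranged between 8.67 and 74.8 TPM, and the umbrella cell keratin Krt20 between 2.65 and 19.3 TPM, in libraries with urothelial transcripts. In those without, their medians were 0.0584 and 0.188 TPM. The 7 genes came in nearly fixed proportions. Sprr1a, a cornified envelope precursor, gave 37.5% ± 3.20 of the sum, Upk3a 16.3% ± 2.02, Upk1a 14.6% ± 1.89, Psca 11.6% ± 1.81, Krt5 9.44% ± 2.02, Upk2 7.77% ± 1.18 and Krt20 2.80% ± 0.378 (SD, n = 7). In the 13 CAC libraries over 100 TPM, Sprr1a gave 37.5% ± 3.80, Upk3a 16.2% ± 1.67 and Krt20 2.63% ± 1.08 (SD, n = 13).

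By arm, the libraries over 100 TPM were 13 of 22 CAC libraries (59.1%, exact 95% binomial interval 36.4% to 79.3%), 2 of 20 NCAC libraries (10%, 1.23% to 31.7%) and 5 of 20 mock libraries (25.0%, 8.66% to 49.1%). By Fisher's exact test, 2-sided, CAC differed from mock at p = 0.0334, or 0.0668 adjusted over the 2 comparisons, and NCAC from mock at p = 0.407, also 0.407 adjusted. With a threshold of 200 TPM the CAC and mock shares differed by 40 percentage points with an adjusted p of 0.0148 by the same exact test, so this call turned on the threshold. At 50 TPM mock 2-week replicate 5 was over it too and CAC stayed at 13 libraries, so the difference from mock was smaller. By week, 3, 2, 3 and 5 CAC libraries, 1, 1, 0 and 0 NCAC libraries, and 0, 2, 1 and 2 mock libraries were over it at 2, 4, 6 and 8 weeks.

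Outside the 7 genes, the libraries with urothelial transcripts held more RNA of most tested genes of the epithelial lists and of 92 called genes outside them. limma on log2(TPM + 1), with arm and week as terms, called 116 of 14441 genes higher in libraries with urothelial transcripts (0.803%) and 1 lower (0.00692%) at an adjusted p under 0.05, together 117 (0.81%), and 851 had an unadjusted p under 0.05. On this scale the change of low genes is understated. Each log2 difference was taken within the arm and week groups. The mock 2-week and the NCAC 6-week and 8-week groups held no library over the threshold. Their libraries entered the estimate of spread but not the differences, whereas means and ranges given beside them are over all 33. The filter of 0.5 TPM on the mean of all 40 libraries favoured higher calls: 52 of the 116 averaged under 0.5 TPM in the 33 libraries and were tested only because of their level in the 7. Differences of such genes are given below without a p in these 40 libraries. Among the 14254 genes of at least 0.5 TPM in the 33, 64 were called higher (0.449%) and 1 lower. For 21 genes, 0.145% of those tested, each of the 7 libraries was above each of the 33, and for 0 genes was each below. Most of the 21, such as Prom2 at 0.0463 TPM and Fer1l4 at 0.0521 TPM, also averaged under 0.5 TPM in the 33. The filter thus favoured this direction, and the 2 counts cannot be weighed against each other. Of the 116, 83 averaged under 1 TPM in libraries without urothelial transcripts, and 24 were among the 28 tested genes of 3 epithelial lists. The median log2 difference over all genes was 0.02.

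**Figure D2:**
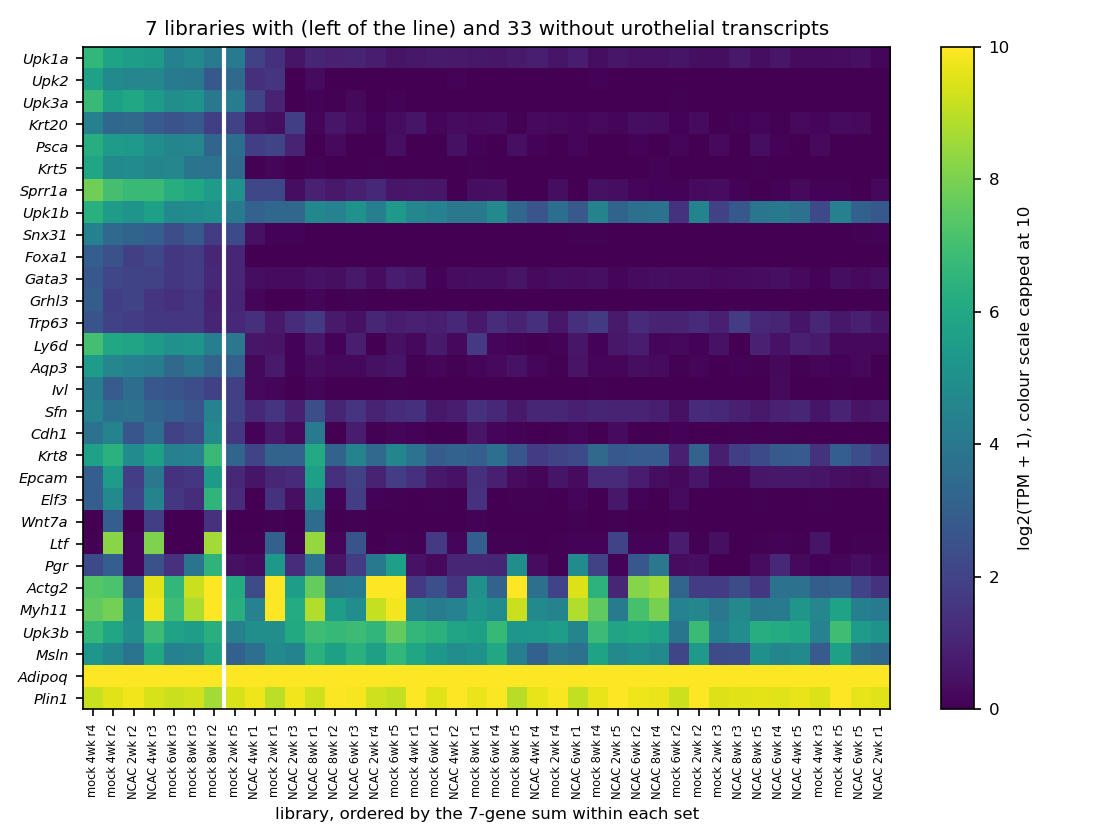
log2(TPM + 1) of 30 genes (rows) in the 7 libraries with (left of the white line) and the 33 without urothelial transcripts (columns), each set ordered by the 7-gene sum, with colours capped at 10. Upk1a, Upk3a and Sprr1a are brighter in the 7 libraries and in mock 2-week replicate 5 than elsewhere, and Adipoq is bright in every column. Ltf is bright in 3 of the 7 and in NCAC 8-week replicate 1. Wnt7a is raised in the same libraries but, like Foxa1, stays low on the scale.

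Other urothelial genes are described without a test, since the same cells chose the libraries, although 6 of them are counted among the 116. Of 13 genes in the list, 8 were tested and 8 had a positive difference, with a median log2 difference of 1.67. Snx31 (chr15:36504062-36555573), a sorting nexin that handles uroplakins in umbrella cells, had 2.44, 5.92, 4.15, 6.95, 8.37, 9.82 and 19.8 TPM in libraries with urothelial transcripts, against a median of 0.0197 and a highest value of 3.74 TPM in those without. That highest value was again in mock 2-week replicate 5, and it alone exceeded 1 of the 7. The pioneer factor Foxa1 (chr12:57540628-57546916) lay between 1.09 and 7.03 TPM and was listed at 0 in 27 of the 33 libraries without. Gata3, a factor of urothelial identity, averaged 2.96 ± 1.44 TPM (SD, n = 7) against 0.311 ± 0.190 TPM (SD, n = 33), and Grhl3, a grainyhead-like factor of umbrella cell differentiation, 2.70 ± 1.90 against 0.0413 ± 0.182 TPM. Shh, the hedgehog ligand made by basal urothelium, was too low to be tested, with 0.549 to 4.12 TPM in libraries with urothelial transcripts, and listed at 0 in 31 of the 33 without. Trp63 averaged 2.49 ± 1.24 TPM against 1.09 ± 0.512 TPM. The growth factor receptor Fgfr3 had 3.25 ± 0.879 TPM in libraries with urothelial transcripts and 2.92 ± 1.41 TPM in those without, and overlapped between them. The keratins Krt13, Krt14, Krt15 and Krt17 were too low in the 40 libraries to be tested.

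The 2 uroplakins shared with mesothelium are given apart. Upk1b (chr16:38773184-38800328) had 31.2, 28.3, 26.5, 48.9, 35.2, 44.1 and 80.7 TPM in libraries with urothelial transcripts, against a lowest of 1.78, a median of 12.7 and a highest of 41.5 TPM in those without. The groups overlapped, with 3 of the 7 above all of the 33, and the log2 difference was 1.60 (SE 0.41). In the CAC libraries it was 2.77 (SE 0.33), from 48.9 ± 29.2 TPM over the threshold (n = 13) and 6.75 ± 4.12 TPM under it (SD, n = 9). Upk3b (chr5:136038496-136046487) had 68.3 ± 30.5 TPM in libraries with urothelial transcripts (SD, n = 7) and 66.7 ± 40.6 TPM in those without (SD, n = 33), a log2 difference of 0.05 (SE 0.41). The ratio of Upk1b to Upk3b was 0.403 to 1.22 in libraries with urothelial transcripts and 0.129 to 0.850 in those without, with medians of 0.599 and 0.202. The mesothelial list had 0 of 8 genes called and a median log2 difference of 0.10, and its best known member Msln had 33.4 TPM against 31.9 TPM on average.

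Genes of stratified epithelia were higher in the same libraries. Of the 7 tested genes of the list, 4 reached the filter only through the 7 libraries, the other 3 (Ly6d, Sfn and Perp) were called higher, and 7 more genes were too low to be tested. Ly6d (chr15:74762056-74763620), a surface protein of stratified epithelia, had 18.3, 35.6, 32.1, 44.8, 56.4, 62.2 and 127 TPM in libraries with urothelial transcripts, against a lowest of 0, a median of 0.172 and a highest of 14.5 TPM in those without. Each of the 7 was above all 33, and the log2 difference was 5.11 (SE 0.34, limma adjusted p = 2.17e-13), the largest among called genes of at least 10 TPM. Aqp3 (chr4:41092722-41098183), a water and glycerol channel of basal and intermediate urothelial cells, had 8.04, 13.9, 9.98, 17.7, 19.3, 23.6 and 45.0 TPM, against at most 7.38 TPM. Its log2 difference was 3.98 (SE 0.25), and again no library overlapped. Ivl, the cornified envelope protein involucrin, averaged 7.51 TPM against 0.103 TPM, and Sfn, the epithelial 14-3-3 protein, 12.5 TPM against 1.16 TPM. Ivl differed by 2.89 (SE 0.19) on the log2 scale, and Sfn rose by 2.61 (SE 0.21, limma adjusted p = 2.13e-11). Perp and Dsp, of the desmosomes that tie epithelial cells together, differed by 2.01 (SE 0.30, limma adjusted p = 3.7e-05) and 1.70 (SE 0.21). Of 9 genes of cornified skin 1 was abundant enough to be tested, Krt10, at a log2 difference of 0.16 with a limma adjusted p of 1. Krt1 and Lor were at or under 0.232 and 0.175 TPM in each of the 7 libraries.

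Sprr2a2 (chr3:92215920-92256724) and Sprr2a3 (chr3:92285417-92291405), small proline-rich envelope proteins, rose by 4.50 (SE 0.33) and 4.13 (SE 0.37), with limma adjusted p-values of 1.97e-12 and 2.66e-10. They are near-identical copies between which reads may have been split, so their separate values are uncertain. Sptssb (chr3:69819542-69859940), a small subunit of serine palmitoyltransferase, had 7.43, 17.0, 19.4, 24.3, 19.3, 33.1 and 48.2 TPM in libraries with urothelial transcripts, against a median of 0.0312 and a highest of 9.50 TPM in those without. The highest was above 1 of the 7, and the log2 difference was 4.42 (SE 0.27). The membrane protease Tmprss2 (chr16:97564682-97611195) averaged 16.6 ± 9.09 TPM (SD, n = 7) against 0.424 ± 1.55 TPM (SD, n = 33), a log2 difference of 3.89 (SE 0.31). The raft protein Mal, which carries cargo to the apical surface, averaged 15.3 ± 8.02 against 1.15 ± 1.71 TPM and rose by 3.06 (SE 0.29). Fam25c averaged 12.01 ± 7.35 TPM against 0.272 ± 0.577 TPM, with no overlap and a log2 difference of 3.30 (SE 0.24). The called genes also held enzymes. Aldh3a1, an aldehyde dehydrogenase of surface epithelia, averaged 3.74 TPM against 0.0737 TPM and Srd5a1, a steroid 5-alpha-reductase, 9.26 TPM against 1.66 TPM. Ctse, the protease cathepsin E, averaged 8.23 TPM against 0.698 TPM. These 3 were chosen after their values were seen, from the 21 genes with no overlap.

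General epithelial genes rose too, but unevenly among the 7 libraries. Of 13 tested genes of the list, 3 reached the filter only through the 7 libraries, and 8 of the other 10 were called higher. Cdh1 (chr8:106603351-106670246), the E-cadherin of epithelial junctions, had 24.9, 4.05, 2.78, 10.97, 5.37, 21.2 and 12.3 TPM in libraries with urothelial transcripts, against a median of 0.0404 and a highest of 15.8 TPM in those without, and rose by 3.16 (SE 0.37, limma adjusted p = 1.66e-07). Epcam, the epithelial cell adhesion molecule, had 42.9, 2.02, 1.78, 14.9, 2.48, 45.0 and 6.89 TPM, against a median of 0.566 and a highest of 51.1 TPM, and rose by 2.33 (SE 0.52, limma adjusted p = 0.0139). For both genes mock 8-week replicate 2, which had the lowest 7-gene sum, was among the highest, and the groups overlapped. The epithelial factor Elf3 also spread widely, with 92.6 TPM in that library, 21.3 TPM in NCAC 4-week replicate 3, 26.3 TPM in mock 4-week replicate 2 and 1.49 to 6.93 TPM in the other 4. It rose by 3.10 (SE 0.53, limma adjusted p = 0.000282). The tight junction gene Cldn4 (chr5:134945119-134946934) averaged 12.7 TPM in libraries with urothelial transcripts, against 0.462 TPM in those without, a log2 difference of 3.50 (SE 0.32). The simple epithelial keratins Krt18 and Krt7 averaged 52.5 and 15.9 TPM, against 7.60 and 2.53 TPM, and Krt18 rose by 2.88 (SE 0.41, limma adjusted p = 1.21e-05). Wfdc2, a secreted protease inhibitor, and the surface protein Plet1 rose by 4.42 (SE 0.53) and 3.77 (SE 0.55), with limma adjusted p-values of 3.62e-07 and 1.67e-05. Krt19 and Cldn3 were the members not called, at log2 differences of 1.44 and 1.26 and limma adjusted p-values of 0.0798 and 0.399.

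The libraries high in Epcam and Elf3 also held other transcripts that the 7-gene sum did not measure. Wnt7a, a ligand of uterine epithelium, was at 1.70, 2.61 and 6.93 TPM in mock 8-week replicate 2, NCAC 4-week replicate 3 and mock 4-week replicate 2, and at or under 0.0176 TPM in the other 4 libraries with urothelial transcripts. Ltf, a secreted protein abundant in uterine epithelium under oestrogen and also in neutrophils, was at 390, 269 and 300 TPM in the same 3 libraries and at most 0.0852 TPM in the other 4. Pax8 was at 1.03 to 3.03 TPM in those 3 libraries and at most 0.0279 TPM in the other 4. Among the 33 libraries without urothelial transcripts only NCAC 8-week replicate 1 had at least 1 TPM of Wnt7a, at 10.6 TPM, and it had 337 TPM of Ltf, 51.1 TPM of Epcam and 104 TPM of Wfdc2 with a 7-gene sum of 2.39 TPM and 0.519 TPM of Ly6d. The uterus and oviduct list as a whole had 0 of 5 tested genes called, with a median log2 difference of 0.95, and Prss28 and Prss29 of uterine glands were listed at 0 in all 7. With the libraries of at least 1 TPM Wnt7a left out, a choice made after the values were seen, 4 libraries with urothelial transcripts stood against 32 without. The NCAC 4-week group then held no library over the threshold either, and did not enter the differences. Then limma called 74 genes higher (0.512%) and 0 lower, with 619 at an unadjusted p under 0.05, and all 74 were among the 116. Ly6d was then at 5.36 and Aqp3 at 4.10 on the log2 scale. Epcam and Krt8 were among the 42 genes no longer called, at 1.05 and 1.92 with limma adjusted p-values of 0.188 and 0.103.

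**Figure D3:**
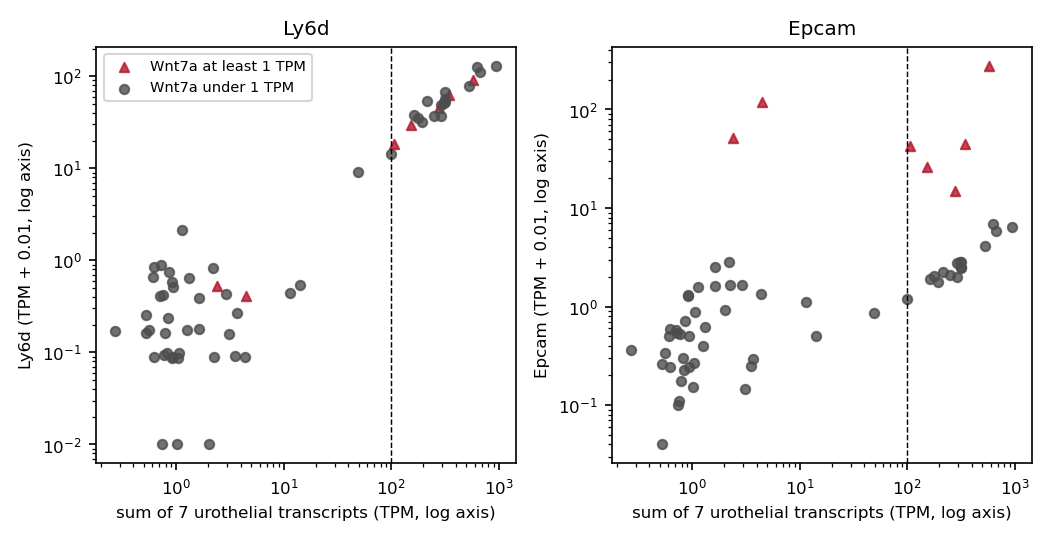
Ly6d (left) and Epcam (right) in TPM + 0.01 against the 7-gene sum, both on log axes, in 62 libraries; triangles are the 7 libraries with at least 1 TPM of Wnt7a, circles the others, and the dashed line is at 100 TPM. Over the line Ly6d lies on 1 band for triangles and circles alike, whereas Epcam is at 14.9 TPM or more in every triangle.

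Per unit of the 7-gene sum, most called genes stayed within 3-fold in the libraries under 1 TPM of Wnt7a. For each 100 TPM of the sum, Ly6d stood at 16.2 to 20.1 TPM, Aqp3 at 5.18 to 7.75 TPM, Snx31 at 2.16 to 3.30 TPM and Foxa1 at 0.859 to 1.34 TPM in the 7 libraries. Elf3 stood at 0.829 to 86.2 TPM and Epcam at 0.780 to 39.9 TPM. In the 4 libraries under 1 TPM of Wnt7a, Elf3 was at 0.829 to 1.09, Epcam at 0.780 to 1.13, Wfdc2 at 6.28 to 7.16 and Krt18 at 13.3 to 17.3 TPM per 100 TPM. Over the 7 libraries 28 of the 116 genes stayed within 3-fold, and over these 4 libraries 102 did, with a median ratio of highest to lowest of 6.89 and 1.62. No background was taken off in these ratios, and fewer libraries narrow a range by themselves. The sum itself spanned only 179 to 635 TPM in these 4 libraries, and Prnp, which was called lower, had a ratio of 2.40. Staying within 3-fold there thus does not tell genes that follow the sum from genes that do not. No share over all genes was taken. In the 11 CAC libraries over the threshold and under 1 TPM of Wnt7a, 87 of the 116 stayed within 3-fold, and Ly6d lay between 12.5 and 25.3 TPM per 100 TPM. The ratio of highest to lowest for Prnp was 9.56 there.

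The same contrast in the CAC libraries, which the choice of the 7 had not used, gave an overlapping set of genes. These libraries were divided by the same 7-gene sum, so genes of the cells it measures were bound to be higher there too. There the 13 libraries over 100 TPM held 152 to 955 TPM of the sum and the 9 under it 0.524 to 49.6 TPM. limma called 61 of 14440 genes higher (0.422%) and 0 lower, with 406 at an unadjusted p under 0.05. All 116 genes called higher in the 40 libraries had a positive difference there, where 77.1% of all genes tested did, and 48 of them were called, which is 48 of the 61. Of the 116, 52 had been tested only because of their level in the 7 libraries. They are not set apart in the counts of shared genes given here. Ly6d averaged 63.5 ± 31.0 TPM over the threshold (SD, n = 13) and 1.21 ± 2.93 TPM under it (SD, n = 9), a log2 difference of 5.30 (SE 0.30, limma adjusted p = 1.54e-09). Aqp3 averaged 22.6 ± 11.9 and 0.456 ± 0.943 TPM and rose by 4.10 (SE 0.24, limma adjusted p = 1.64e-09), and Snx31 had 10.9 ± 5.80 and 0.199 ± 0.493 TPM. Of the general epithelial list, 2 of 13 genes were called, Krt18 and Cldn4, whereas Epcam was at 1.49 (SE 0.78, limma adjusted p = 0.951). CAC 2-week replicate 1, under the threshold at 4.52 TPM, held 32.4 TPM of Wnt7a and 119 TPM of Epcam. Without it 99 genes were called. With the 3 CAC libraries of at least 1 TPM Wnt7a left out, 152 genes were called higher (1.05%) and 0 lower, and 73 of the 74 genes called in the 36 NCAC and mock libraries were among them. Epcam then rose by 1.62 (limma adjusted p = 1.99e-05). Between the CAC and the other 2 arms, the interaction of limma called 0 of 14441 genes, with 316 at an unadjusted p under 0.05 and a smallest adjusted p of 0.189. Between NCAC and mock it called 0, with 288 at an unadjusted p under 0.05.

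**Figure D4:**
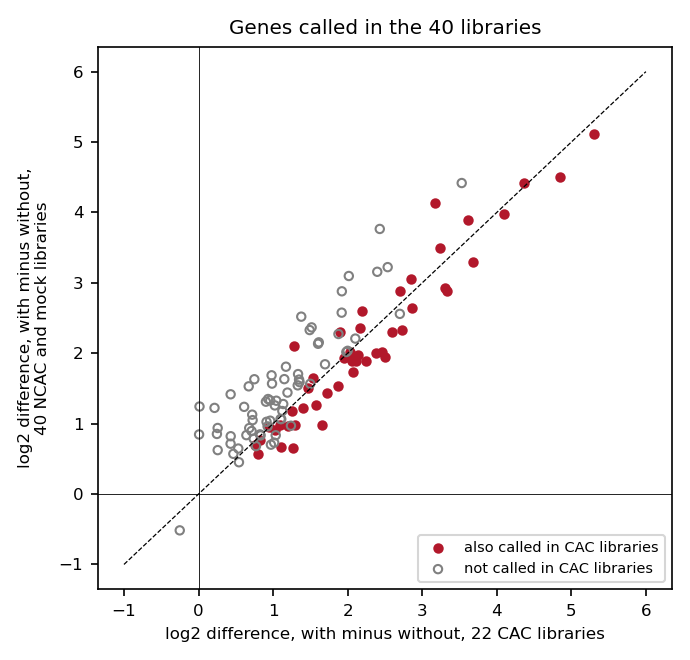
log2 difference, with minus without urothelial transcripts, in the 40 NCAC and mock libraries (vertical) against the 22 CAC libraries (horizontal), for the 117 genes called in the 40; red points were also called in CAC libraries, and the dashed line marks equal values. All 116 genes called higher lie right of 0, as do 77.1% of all genes tested in the CAC libraries, and Prnp lies below and left of 0.

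In bulk RNA, more cells of a type and more RNA per cell cannot be told apart, and smooth muscle genes, which the bladder wall shares with other organs, gave no call. Actg2, the smooth muscle gamma-actin of visceral muscle, had 2954, 582, 98.4, 761, 7.85, 141 and 162 TPM in libraries with urothelial transcripts, against a lowest of 1.09, a median of 11.9 and a highest of 1444 TPM in those without. The groups overlapped widely, NCAC 2-week replicate 2 had less than the median of the 33, and the log2 difference was 3.15 (SE 1.32, limma adjusted p = 0.698). Myh11, the smooth muscle myosin, was at 2.12 (SE 0.88, limma adjusted p = 0.686). All 13 genes of the smooth muscle list had positive differences and 0 were called, with a median log2 difference of 1.74. Their summed level was 537 to 18175 TPM in libraries with urothelial transcripts and 174 to 11759 TPM in those without. With the smooth muscle level as a term, chosen after the values were seen, the median of all genes moved to −0.13. Then 89 genes were called, 87 of them among the 117 of the main fit, and Ly6d kept its call. The muscarinic receptor Chrm3 of the detrusor, the bladder's own muscle, averaged 0.611 TPM against 0.583 TPM, and 0 of 8 tested genes of the detrusor list were called. All 8 had positive differences in the 40 libraries and in the CAC libraries, with median log2 differences of 0.68 and 0.25. Of 6 tested nerve and Schwann cell genes 0 were called in the 40 libraries, with a median log2 difference of 0.34. In the CAC libraries 2 were called higher, the neuronal hydrolase Uchl1 at 1.68 and the Schwann cell factor Sox10 at 0.51, with limma adjusted p-values of 0.000631 and 0.0433 and a list median of 0.55. The part of smooth muscle in the epithelial differences was not tested beyond that term.

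Further tissues marked single libraries. Skeletal muscle actin Acta1 was at 1613 TPM in mock 6-week replicate 3 and 443 TPM in mock 8-week replicate 2, against 2.01 to 69.0 TPM in the other 5 libraries with urothelial transcripts and a median of 31.9 TPM in the 33 without. The skeletal muscle list had 0 of 10 genes called. Alb, serum albumin, was at 188 TPM in NCAC 2-week replicate 2 and at 19.8 TPM or less in the other 6, against a highest of 182 TPM among the 33. The kidney list was near 0, with sums of 0.159 to 2.15 TPM in libraries with urothelial transcripts and 0.0193 to 5.09 TPM in those without, and 0 of its 6 genes were abundant enough to be tested.

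Genes of the fat itself did not pass the test. Adipoq, the adipocyte hormone adiponectin, had 1789, 2443, 3862, 3593, 4768, 4559 and 3707 TPM in libraries with urothelial transcripts, against a lowest of 2579, a median of 4796 and a highest of 6978 TPM in those without. Mock 8-week replicates 2 and 3 were below all 33, and the log2 difference was −0.50 (SE 0.17, limma adjusted p = 0.371). The lipid droplet coat Plin1 was at −0.32 (SE 0.15) and the hormone leptin, Lep, at −1.11 (SE 0.67), with limma adjusted p-values of 0.794 and 0.983. Of 16 adipocyte genes 2 had a positive difference and 0 were called, with a median of −0.29. Ucp1, the uncoupling protein of thermogenic fat, was at 2.47 (SE 1.46, limma adjusted p = 0.960) with 11.5 to 2046 TPM in libraries with urothelial transcripts and 0.0776 to 1704 TPM in those without. The thermogenic list had 0 of 8 called and a median of 1.01. Col1a1, a fibrillar collagen, was at 0.49 (SE 0.69, limma adjusted p = 1), and 0 of 16 matrix genes, 0 of 10 fibroblast genes, 0 of 8 endothelial genes and 0 of 10 macrophage genes were called, with medians of 0.15, −0.06, −0.05 and −0.35.

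**Figure D5:**
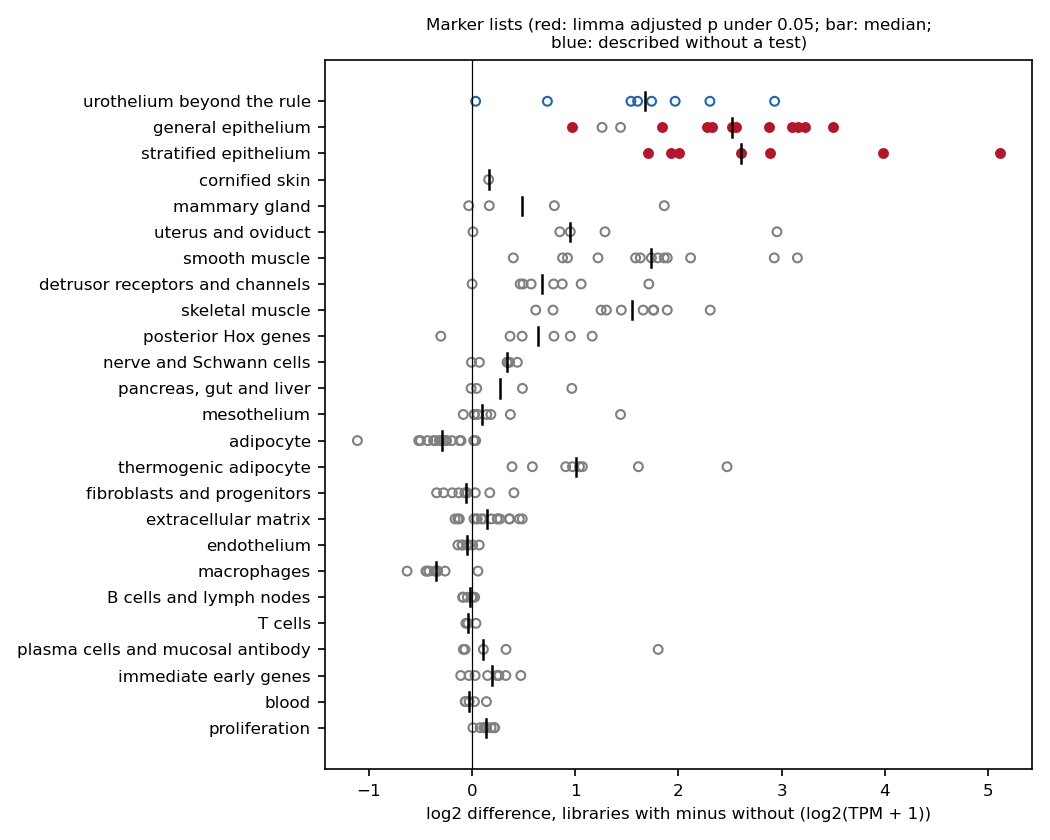
log2 difference, with minus without urothelial transcripts, of the tested members (points) of each marker list (rows) in the 40 libraries; red points have a limma adjusted p under 0.05, blue ones belong to the urothelial list described without a test, and bars are medians. Red points are found in the general and the stratified epithelial list, at 11 of 13 and 7 of 7 members, of which 3 and 4 reached the filter only through the libraries with urothelial transcripts.

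At the other end of abundance stood Gstm1, a glutathione transferase, with 757 TPM on average in libraries with urothelial transcripts and 454 TPM in those without. Its ranges of 432 to 1130 TPM and 238 to 656 TPM overlapped, and the log2 difference was 0.66 (SE 0.16, limma adjusted p = 0.0288). With the libraries of at least 1 TPM Wnt7a left out it was 0.78 and no longer called (limma adjusted p = 0.0856). In the CAC libraries it rose by 1.27 (limma adjusted p = 6.19e-05). Gstm1 is named outside the rule, with its values known, as the called gene of highest level. Prnp (chr2:131909928-131938429), the prion protein, was the 1 gene called lower. It had 270, 207, 256, 257, 364, 397 and 352 TPM in libraries with urothelial transcripts, against a lowest of 253, a median of 371 and a highest of 556 TPM in those without. The groups overlapped, and the log2 difference of −0.52 (SE 0.12, limma adjusted p = 0.0298) was no longer called in 8 of 16 other settings and on leaving out 8 of the 40 libraries in turn. In the CAC libraries Prnp was at −0.25 (SE 0.18, limma adjusted p = 0.951).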

How the data were processed

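RNA of white adipose tissue was sequenced in 62 libraries from a stranded mRNA kit, per the labels' protocols. The authors deposited TPM per gene symbol. The submitters' processing notes name the build mm10, and the sources used here give no aligner, counter or annotation. Each of the 62 columns sums to 1000000 TPM, so depth is unknown, and TPM keep neither counts nor counting error. Binomial intervals are over libraries. Genes of at least 1 TPM numbered between 11783 and 14470 per library, and mitochondrially encoded genes took up to 44.5% of the transcripts in the 40 NCAC and mock libraries.

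Libraries were divided at a sum of 100 TPM over 7 genes, which were left out of every test. Of 47643 symbols, the 14441 whose average over these 40 libraries reached 0.5 TPM were tested on log2(TPM + 1) with limma 3.58.1 in R 4.3.3 (trend, robust prior, Benjamini-Hochberg over all genes tested, 2-sided), with the division and the arm and week groups as terms. Data of these dimensions were also simulated. For the 40 libraries, 88 of 100 genes changed by 1 on the log2 scale were called, and 100 of 100 changed by 2. The calls numbered 201, 13 of them of unchanged genes. These simulated counts were not split by level. Of the 116 genes called higher in the data, 83 averaged under 1 TPM in libraries without urothelial transcripts. The simulated counts therefore do not give the recovery or the false calls among such low genes. Genes named were the 15 largest rises and up to 10 largest falls among called genes of at least 10 TPM, up to 4 called genes of each list, and a fixed set of marker genes; further list members are named to describe their list. Gene positions are those of GENCODE M21 (GRCm38). The members, lists and tests were chosen with earlier results of these data known. Alternatives were other pseudocounts, filters, scalings, terms, weights, thresholds and left-out libraries. Replicate numbers did not pair the samples. One gene that the naming rule selects is not reported here.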

Additional observations from a re-analysis of the deposited data

Results flagged for a closer look

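Of 52 sets of values examined, 16 held a library far from the others of its set by Dixon's criterion. For independent, normally distributed values chance alone meets it at a rate of about 5% for each set. The values here were TPM without a log, and many sets share the same libraries or follow the 7-gene sum. The 16 can therefore not be set against that rate. In the 7-gene sum, mock 2-week replicate 5 (99.8 TPM), mock 6-week replicate 3 (192 TPM), NCAC 2-week replicate 2 (318 TPM), NCAC 4-week replicate 3 (277 TPM) and NCAC 6-week replicate 3 (2.22 TPM) stood above the other 4 libraries of their groups. Among the 7 libraries with urothelial transcripts, mock 4-week replicate 4 stood above the other 6 for Krt5 (58.4 TPM), Ly6d (127 TPM), Aqp3 (45.0 TPM), Snx31 (19.8 TPM), Grhl3 (6.70 TPM) and Upk1b (80.7 TPM). Mock 8-week replicate 2 stood above them for Elf3 (92.6 TPM), Actg2 (2954 TPM) and Col1a1 (1548 TPM), NCAC 2-week replicate 2 for Lep (1162 TPM), and mock 8-week replicate 3 for Ucp1 (2046 TPM).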

How the results depend on the processing

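The 117 genes called in the 40 libraries became 412 with no filter, 9 at a mean of at least 5 TPM, 188 without mitochondrially encoded genes, 176 without arm and week, 73 with a sum of 5 genes (no Krt5 or Sprr1a) and 74 with the Wnt7a libraries left out, and 85 to 158 on leaving out each library. With the smooth muscle level as a term 89 were called, 87 of them shared with the 117. The smaller number at 5 TPM comes with fewer genes tested. The 61 CAC calls became 93 without mitochondrially encoded genes, 27 with the replicate block, 38 at 200 TPM, 38 with the sum of 5 genes and 152 without the Wnt7a libraries, and 48 to 99 on leaving out each library. The interaction of CAC with the other arms had 1 call with median-ratio rescaling and 0 to 1 on leaving out each library. For list members outside the 3 epithelial lists, 0 calls became 1 with a pseudocount of 10, 4 with no filter, 3 without mitochondrially encoded genes, 2 with median-ratio rescaling, 2 without arm and week, 3 with library weights, and 0 to 2 on leaving out each library. The CAC minus mock share was 34.1 points, 40 at 200 TPM (Fisher's exact test, adjusted p = 0.0148) and 35 with the sum of 5 genes (0.0464 by the same exact test). It was smaller at 50 TPM, where 13 CAC libraries and 8 of the 40, with mock 2-week replicate 5 added, were over the threshold. Where no cause is named, it was not tested. Ly6d and Cdh1 were called in each setting that tested them, and Elf3 was lost with the sum of 5 genes (limma adjusted p = 0.309). Upk1b, not called in the main fit, was called in 8 of 16 other settings and on leaving out 12 of the 40 libraries in turn. Same-numbered samples did not deviate together (median r = −0.02), and a replicate block in the 40 libraries gave 131 calls, 108 of them shared. Depth is unknown, so its limits cannot be stated.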
